A study of Mus musculus with 160 samples.

Results

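*Cxcl13*, *Cxcr5*, *Ccl19*, *Ccr7*, *Ccl20*, *Ccr6*, *Lta*, *Ltb* and *Ltbr* were followed by name through 160 RNA-seq libraries of mouse distal colon. They are 9 of the 39179 genes in the count files, namely 3 chemokines, their 3 receptors, and lymphotoxin alpha, lymphotoxin beta and the lymphotoxin beta receptor. All 9 were matched by Ensembl identifier. They were chosen by name as genes of lymphoid follicles, with earlier results of these data known.

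The libraries came from 4 mouse lines, in each of which homozygous knockouts were set beside wild-type mice. The *Nckap1l* line (labelled HEM1) had 16 knockout and 15 wild-type samples, of which 4 and 8 were labelled female. The *Dock2* line had 18 and 24 samples, of which 8 and 12 were labelled female. The *Gpsm3* line had 20 and 20 and the *Dok3* line 26 and 21 samples, all labelled male. The *Dok3* line is labelled strain 129 and the other lines C57BL6/J. Per the methods the mice were young adult littermates of heterozygous crosses, co-housed by age and sex and re-derived from existing knockout models. The protocol was 5 days of dextran sulfate sodium (DSS), a detergent that injures the colon lining, in the drinking water. The labels give 3% (*Dock2*, *Gpsm3*) or 3.5% (*Dok3*), and no percentage for *Nckap1l*. The methods state a slightly lower dose for *Nckap1l* mice, and for *Dok3* mice 3% in an earlier round before 3.5%. Water followed for 5 days (7 for *Nckap1l*), with collection on day 10 (day 12 for *Nckap1l*). Treated and untreated mice were both sequenced, and the labels do not say which mice of a line received DSS. Knockouts and wild types are therefore compared over treated and untreated mice together, and a difference in the share of treated mice between genotypes cannot be told apart from the knockout. Strain, DSS percentage and collection day cannot be told apart from the line.

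Lymphoid follicles are clusters of B cells in the gut wall, held together by stromal cells and bordered by T cells. In the colon they include isolated lymphoid follicles and the colonic patches. CXCL13 attracts B cells and follicular helper T cells that carry CXCR5, CCL19 attracts naive T cells and mature dendritic cells that carry CCR7, and CCL20, made by the epithelium over a follicle, attracts B cells and type 3 lymphoid cells that carry CCR6. Lymphotoxin alpha and beta form a membrane trimer on lymphocytes that signals through the lymphotoxin beta receptor on stroma and epithelium, and this signal, through the NF-kB pathway, keeps the chemokine genes switched on.

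The sequences that bear on this circuit are the promoters of the 3 chemokine genes, which lymphotoxin signalling is known to act on, and of *Ltb*, which encodes the signal itself. Each window runs from 250 bases before to 50 bases after the RefSeq gene start (GRCm38.p6, 5′ to 3′ on the gene's strand), and capitals mark matches to 2 motifs searched on both strands. One is the general NF-kB consensus of 10 bases, searched by name. The other is GGGAGATTT, a site of the RelB form of NF-kB that was first described in the *Cxcl13* promoter itself, so that its presence there is a restatement and no finding. *Cxcl13* lies at chr5:95956689-95956988 (plus strand), *Ccl19* at chr4:42756316-42756615 (minus), *Ccl20* at chr1:83116516-83116815 (plus) and *Ltb* at chr17:35194257-35194556 (plus).
*Cxcl13* promoter: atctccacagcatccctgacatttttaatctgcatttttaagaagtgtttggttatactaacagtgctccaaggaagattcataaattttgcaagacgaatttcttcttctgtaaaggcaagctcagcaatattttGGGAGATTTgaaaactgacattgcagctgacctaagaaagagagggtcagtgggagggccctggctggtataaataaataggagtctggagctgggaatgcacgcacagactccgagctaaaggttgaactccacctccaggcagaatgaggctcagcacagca
*Ccl19* promoter: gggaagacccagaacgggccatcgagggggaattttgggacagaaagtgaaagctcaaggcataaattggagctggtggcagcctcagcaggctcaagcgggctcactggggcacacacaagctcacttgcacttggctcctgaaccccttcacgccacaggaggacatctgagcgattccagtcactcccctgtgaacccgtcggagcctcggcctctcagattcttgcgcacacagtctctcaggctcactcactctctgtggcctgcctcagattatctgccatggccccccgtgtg
*Ccl20* promoter: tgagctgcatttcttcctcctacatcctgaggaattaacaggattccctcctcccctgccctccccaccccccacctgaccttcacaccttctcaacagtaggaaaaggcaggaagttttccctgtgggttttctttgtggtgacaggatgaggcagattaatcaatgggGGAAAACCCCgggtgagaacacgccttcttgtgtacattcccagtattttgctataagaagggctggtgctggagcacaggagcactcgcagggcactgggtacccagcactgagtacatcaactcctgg
*Ltb* promoter: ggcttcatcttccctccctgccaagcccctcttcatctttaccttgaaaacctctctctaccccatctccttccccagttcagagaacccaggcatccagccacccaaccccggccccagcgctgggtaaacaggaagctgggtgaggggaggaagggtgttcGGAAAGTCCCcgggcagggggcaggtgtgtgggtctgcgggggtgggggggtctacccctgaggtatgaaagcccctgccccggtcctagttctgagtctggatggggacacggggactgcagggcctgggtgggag

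The *Cxcl13* window held GGGAGATTT on the plus strand, starting 114 bases before the gene start. As background, this run of 9 bases was present in 104 of 32851 promoter windows (0.317%). The *Ccl20* and *Ltb* windows each held 1 match to the NF-kB consensus on the minus strand, 80 and 87 bases before the start. That consensus matched in 2779 of the 32851 windows (8.46%). The *Ccl19* window held neither, which says only that these letters are not in it. In these windows matches to the 2 motifs did not overlap. Promoter windows were on hand for 7 of the 9 genes, and 4 of the 7 had a match to one or the other, the fourth being *Ccr6* in the second of its 2 windows. *Ltb* and *Lta* stand 6845 bases apart, with *Tnf* between them, and *Ltb* is 602685 bases from *Gpsm3* on chromosome 17, one of the 4 genes that were knocked out.

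Library totals ran from 4344988 to 19993833 counts (median 15989625), so 3 counts, taken as the limit of detection, stood for 0.15 to 0.69 CPM, where CPM is a gene's counts scaled to a fixed library total. The knocked-out gene itself was lower in the *Gpsm3* knockouts (median 0.556 CPM against 3.15 CPM, with 15 of 20 knockouts below every wild type). The ranges of knockouts and wild types overlapped in each line. *Nckap1l* had a median of 14.8 CPM in its knockouts and 27.6 CPM in wild types (8 of 16 knockouts below every wild type), *Dock2* 22.4 and 35.7 CPM (3 of 18), and *Dok3* 3.30 and 3.67 CPM (4 of 26), and 10 of the 26 libraries labelled *Dok3* knockout were at or above the wild-type median. The deleted part of each gene is not given, so reads from a remaining transcript cannot be told apart from a label error, and "*Dok3* knockout" below means libraries so labelled. In 5 *Dok3* libraries the *Xist* and Y-linked counts went against the labelled sex. Skin genes, which the anal end of a sample carries, had a median summed level of 11.5 CPM in *Nckap1l* knockouts (4.42 to 8548 CPM) and 886 CPM in *Nckap1l* wild types (4.80 to 5533 CPM). In the fit of knockout against wild type, all 7 skin genes nevertheless had positive fold changes in that line (median log2 fold change 0.85, none past the threshold).

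Per kilobase of exon, *Ltbr* was the most abundant of the 9 genes, with a mean of 35.9 CPM per kilobase over the 160 libraries, followed by *Cxcl13* at 18.1. The ligand *Ltb* stood at 2.48, *Cxcr5* at 1.80, *Ccr6* at 1.41, *Ccl20* at 1.37, *Ccr7* at 1.30 and *Ccl19* at 0.989 CPM per kilobase. *Lta* was lowest, at 0.465. The receptor for lymphotoxin was thus read at a far higher level than either of its ligands. The next values are CPM, scaled by TMM and not divided by length.

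Among the ligands, *Cxcl13* (the B cell attractant, GRCm38 chr5:95956951-95961068) was the most variable. Its lowest, median and highest levels were 4.92, 15.1 and 61.9 CPM in *Nckap1l* knockouts and 1.93, 5.17 and 161 CPM in *Nckap1l* wild types. They were 4.05, 9.80 and 22.45 CPM in *Dock2* knockouts and 5.74, 10.0 and 27.2 CPM in *Dock2* wild types. The *Dock2* groups were the tightest, with an SD of log2 CPM of 0.65 and 0.54, against 1.94 in the *Nckap1l* wild types. In the *Gpsm3* line *Cxcl13* ran through 5.29, 11.75 and 75.2 CPM in knockouts and 2.39, 9.16 and 77.6 CPM in wild types. In the *Dok3* line it ran through 5.79, 16.5 and 383 CPM in knockouts and 3.78, 17.7 and 215 CPM in wild types. In the *Nckap1l* line 1 of 16 knockouts lay below the wild-type median. Knockout and wild-type ranges overlapped in every line, and 1 *Dok3* knockout library held the highest level of all, 34.1 times the median of the 160.

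*Ccl19* (a CCR7 ligand, chr4:42754525-42756577) was read at a median of 0.646 CPM, with a median of 10.0 counts a library and 1 library at 0. Its group medians lay between 0.516 CPM (*Gpsm3* wild type) and 0.933 CPM (*Nckap1l* wild type). Near-identical copies of this gene exist on chromosome 4 and on unplaced sequence. The copy *Ccl19-ps1* took 87 counts in all against 2139 for *Ccl19*, and reads matching several copies may not have been counted, so its level is uncertain. *Ccl20* (the CCR6 ligand, chr1:83116766-83119167) had a median of 1.57 CPM, from 0.194 to 10.8 CPM. Its group medians ran from 1.15 CPM (*Nckap1l* wild type) to 2.22 CPM (*Dock2* knockout).

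Of the receptors, *Cxcr5* (carried by B cells and follicular helper T cells, chr9:44511787-44561877) ran through 1.12, 2.11 and 9.47 CPM in *Nckap1l* knockouts and 2.43, 4.73 and 30.5 CPM in *Nckap1l* wild types. Of the 16 *Nckap1l* knockouts, 10 were below every wild type of the line. In the *Dock2* line it ran through 1.07, 3.15 and 6.48 CPM in knockouts and 2.09, 5.41 and 11.4 CPM in wild types, and 17 of 18 knockouts lay below the wild-type median. The *Gpsm3* groups ran through 2.10, 5.59 and 25.7 CPM (knockout) and 2.21, 4.86 and 9.66 CPM (wild type). The *Dok3* groups ran through 1.63, 5.74 and 21.3 CPM (knockout) and 2.87, 6.27 and 18.96 CPM (wild type). The knockout and wild-type ranges of both these lines overlapped widely. *Cxcr5* shares 110 of its 3332 exon bases with *Bcl9l* on the other strand, and whether counting used strand is not given in the sources used here.

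*Ccr6* (carried by B cells and type 3 lymphoid cells, chr17:8236043-8257141) showed the same order. It ran through 0.192, 0.655 and 5.29 CPM in *Nckap1l* knockouts and 0.361, 3.11 and 20.3 CPM in wild types, and 14 of 16 knockouts were below the wild-type median. In the *Dock2* line it ran through 0.846, 1.49 and 3.31 CPM in knockouts and 0.343, 3.40 and 6.95 CPM in wild types, where all 18 knockouts lay below the wild-type median but none below the lowest wild type. In the *Gpsm3* line the medians were 3.14 CPM (knockout) and 2.27 CPM (wild type), and in the *Dok3* line 3.50 and 3.89 CPM. *Ccr7* (carried by naive T cells and mature dendritic cells, chr11:99144196-99155077) had group medians from 0.870 CPM (*Nckap1l* knockout) to 2.52 CPM (*Dok3* knockout), and its single libraries ran from 0.132 to 17.1 CPM.

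*Ltb* (chr17:35194439-35196320) had group medians from 1.60 CPM (*Nckap1l* knockout) to 4.15 CPM (*Dok3* knockout), with single libraries from 0.426 to 15.97 CPM. *Lta* (chr17:35203165-35205351) was close to the limit of detection, with a median of 8.0 counts a library, 3 libraries at 0 and group medians from 0.318 CPM (*Nckap1l* knockout) to 0.802 CPM (*Dok3* wild type). *Ltbr* (chr6:125306571-125313885) barely varied. Its 160 libraries lay between 64.2 and 109 CPM, its group means differed by at most 0.12 on the log2 scale, and its SD within groups was 0.15. For *Ccr6* the same figures were 2.003 and 1.08, so group means differed most for *Ccr6* and least for *Ltbr* among the 9 genes.

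By mean log2 CPM, the *Nckap1l* knockouts stood lowest of the 8 groups for *Cxcr5*, *Ccr7*, *Ccr6*, *Lta* and *Ltb*, and the *Dock2* knockouts next lowest for the same 5 genes. The *Dok3* wild types or knockouts stood highest for *Cxcl13*, *Cxcr5*, *Ccr6*, *Lta* and *Ltb*. No step between neighbours in these orders held up. Of 63 neighbouring pairs, 2 had an unadjusted p under 0.05, and the lowest adjusted p was 0.274 (permutation test, two-sided, Benjamini-Hochberg).

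**Figure D1:**
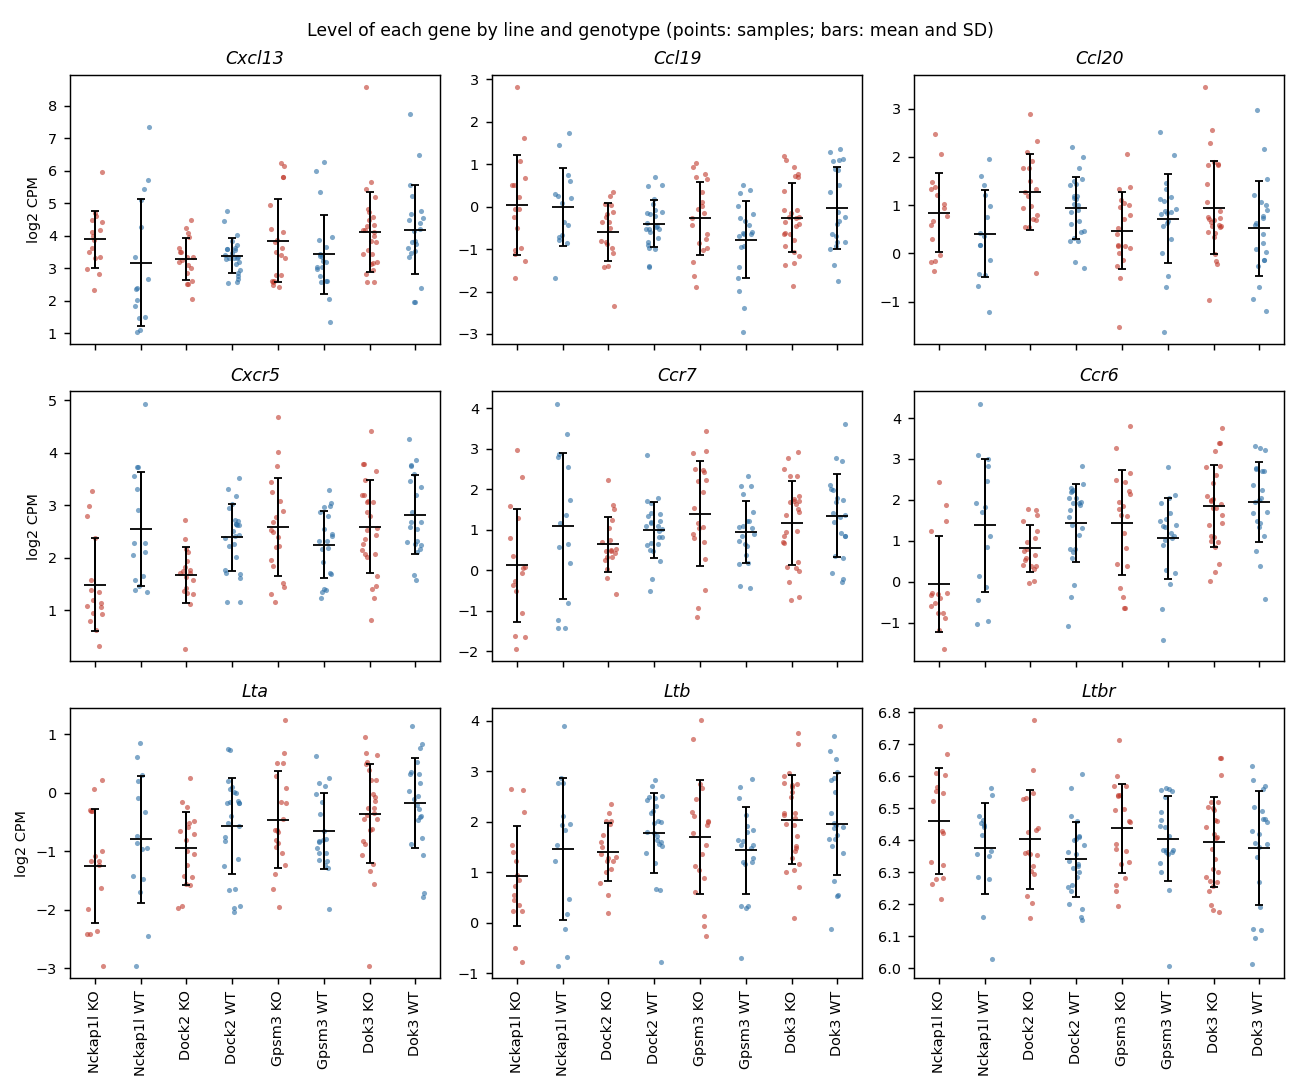
Level of each gene (log2 CPM, vertical axes) in the 8 groups, 1 point a sample, with the mean and SD of each group in black and knockouts in red. The *Nckap1l* and *Dock2* knockouts hold the lowest group means for *Cxcr5*, *Ccr7*, *Ccr6*, *Lta* and *Ltb*, while the *Ltbr* panel spans only 64.2 to 109 CPM.

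To place the genes beside lymphocytes, each was correlated, within a line, with the mean log2 CPM of 11 B cell markers (*Ms4a1*, *Pax5* and others) and of 14 T cell markers (*Cd3e*, *Lck* and others). In bulk tissue, fewer cells of a type and less RNA per cell cannot be told apart. The summed B cell markers had group medians from 7.38 CPM (*Nckap1l* knockout) to 99.3 CPM (*Dok3* wild type), so B cell RNA was present in every group, and the summed T cell markers from 23.9 CPM (*Dock2* knockout) to 40.3 CPM (*Dok3* wild type). Across samples the 2 scores were themselves correlated (r from 0.528 to 0.649 in the 4 lines), so a relation with one is not separate from a relation with the other. All 72 relations were adjusted together. How large a share of all genes would pass with either score was not computed.

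The receptors *Cxcr5* and *Ccr6* and the ligand *Ltb* followed the B cell markers most closely. For *Ccr6*, r was 0.961 in the *Nckap1l* line (n = 31), 0.928 in *Dock2* (n = 42), 0.964 in *Gpsm3* (n = 40) and 0.934 in *Dok3* (n = 47), with Spearman's rho of 0.860, 0.921, 0.968 and 0.952. For *Cxcr5*, r was 0.947, 0.865, 0.890 and 0.897, and rho 0.923, 0.910, 0.934 and 0.941. For *Ltb*, r was 0.886, 0.916, 0.946 and 0.881, and rho 0.874, 0.889, 0.965 and 0.910. Each of these relations had a permutation p of 1e-05, the smallest that 100000 resamples can give (adjusted p = 2.12e-05). Leaving out the 2 samples farthest from the median B cell score left r between 0.853 and 0.965 for the 3 genes. Within single genotypes or runs of sample numbers, r stayed between 0.718 and 0.989 for *Ccr6*, between 0.822 and 0.960 for *Cxcr5*, and between 0.802 and 0.978 for *Ltb*.

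*Lta* and *Ccr7* were also related to the B cell markers in all 4 lines. For *Lta*, r lay between 0.709 (*Dok3*) and 0.809 (*Nckap1l*), with rho from 0.724 to 0.826. For *Ccr7*, r was 0.871 in *Nckap1l*, 0.677 in *Dock2*, 0.540 in *Gpsm3* and 0.744 in *Dok3*, each with an adjusted permutation p of 0.000672 or lower. With the T cell markers *Ccr7* had r of 0.817, 0.641, 0.617 and 0.888 in the same order of lines, and rho of 0.794, 0.675, 0.621 and 0.917 (adjusted permutation p of 8.78e-05 or lower). In the *Nckap1l* and *Dok3* lines that was the highest r of the 9 genes. In *Dock2* *Ltb* (0.673) stood higher, and in *Gpsm3* *Cxcr5* (0.704), *Cxcl13* (0.694), *Ltb* (0.654) and *Ccr6* (0.631) did. In the *Gpsm3* line its relation with the B cell markers ran from 0.168 to 0.906 over single genotypes and runs, so the pooled value does not describe each of them.

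The chemokines kept a looser relation. *Cxcl13* was related to the T cell markers in all 4 lines (r = 0.704, 0.511, 0.694 and 0.666, rho = 0.700, 0.491, 0.722 and 0.826, adjusted permutation p of 0.000765 or lower for r). With the B cell markers it reached the threshold in 3 lines (r = 0.514 in *Dock2*, 0.753 in *Gpsm3* and 0.611 in *Dok3*). In the *Nckap1l* line r was 0.358 (permutation p = 0.0471, adjusted p = 0.0640), was 0.149 without the 2 farthest samples, and ran from -0.261 to 0.861 within genotypes and runs.

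*Ccl19* did not reach the threshold with the B cell markers in any of the 4 lines (r from 0.133 to 0.327), although its rho in *Nckap1l* was 0.404 (adjusted permutation p = 0.0353). Neither genotype of *Nckap1l* is described by the pooled value there, since r was 0.794 within wild types (n = 15, adjusted permutation p = 0.000762) and 0.081 within knockouts (n = 16). Without the 2 farthest samples r was 0.391 in *Gpsm3* (adjusted permutation p = 0.0215). With the T cell markers *Ccl19* reached the threshold in 3 lines, r being 0.742 in *Nckap1l*, 0.411 in *Dock2* and 0.601 in *Dok3*, against 0.247 in *Gpsm3* (adjusted permutation p = 0.1525). *Ccl20* reached it with the B cell markers in *Dok3* alone (r = 0.361, rho = 0.277, adjusted permutation p = 0.0180 for r and 0.0809 for rho) and with the T cell markers in none. Within wild types alone, however, *Ccl20* passed with the B cell markers in *Dock2* (r = 0.691, rho = 0.552, n = 24, adjusted permutation p = 0.000325) and, by r, in *Nckap1l* (r = 0.590, rho = 0.486, n = 15, adjusted permutation p = 0.0331). Within the knockouts of these lines r was -0.170 and 0.240, and the differences between genotypes were not tested. Of its relations with the B and T cell markers over all samples of a line, *Ltbr* reached it once, with the B cell markers in *Dok3* (r = 0.374, rho = 0.227, adjusted permutation p = 0.0138 and 0.1475). For both these *Dok3* relations the rank measure missed the threshold.

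**Figure D2:**
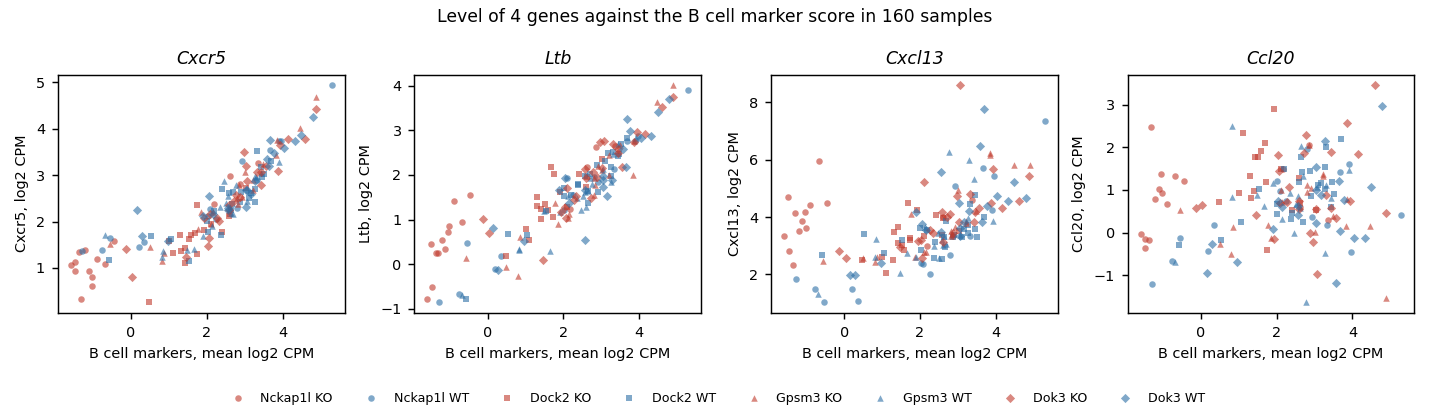
Level of 4 genes (log2 CPM, vertical axes) against the mean log2 CPM of the B cell markers (horizontal axes), 1 point a sample, with marker shape for the line and red for knockouts. *Cxcr5* and *Ltb* rise along a narrow band (r of 0.865 and above within a line), *Cxcl13* along a wide one, and *Ccl20* shows a loose cloud.

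The neutrophil score, a mean over 8 neutrophil genes, was added after the other scores had been seen. Neutrophils enter the colon in inflammation. Of 36 relations 24 passed the threshold. How large a share of all genes would pass with this score was not computed, so the count is not shown to be particular to these genes. *Cxcl13* was related to it in all lines, with r of 0.675, 0.594, 0.767 and 0.691 in *Nckap1l*, *Dock2*, *Gpsm3* and *Dok3*, rho of 0.636, 0.534, 0.594 and 0.573, and an adjusted permutation p of 0.000206 or lower. *Ccl20* went the other way in the *Gpsm3* line (r = -0.520, rho = -0.418, adjusted permutation p = 0.00180) and the *Dok3* line (r = -0.438, rho = -0.492, adjusted permutation p = 0.00464). Without the 2 farthest samples these became -0.315 and -0.363, and within runs of sample numbers they stayed between -0.669 and -0.342. In the *Nckap1l* and *Dock2* lines *Ccl20* had r of -0.047 and -0.068. *Ccl19* passed with the neutrophil score in *Nckap1l*, *Dock2* and *Dok3* (r = 0.764, 0.551 and 0.579, adjusted permutation p of 0.000622 or lower). In *Gpsm3* its r was 0.333 (adjusted permutation p = 0.0510). *Ltbr* passed in *Dock2* (r = 0.594, adjusted permutation p = 0.00027) and *Gpsm3* (r = 0.441, adjusted permutation p = 0.00805), with r of 0.105 in *Nckap1l* and 0.290 in *Dok3*.

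**Figure D3:**
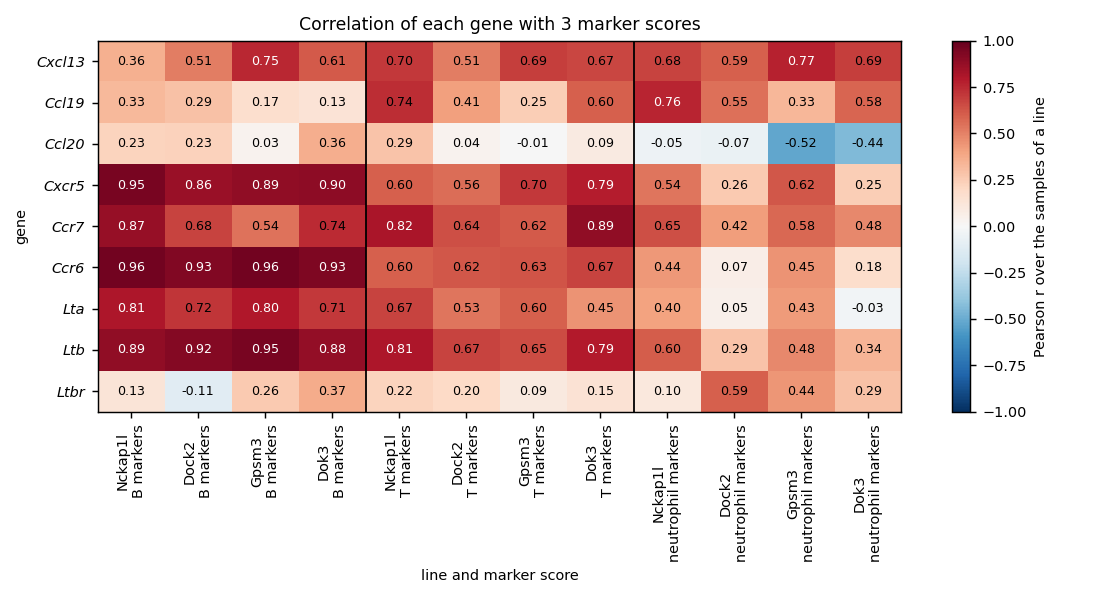
Pearson r of each gene (rows) with the B cell, T cell and neutrophil scores in each line (columns), red for positive and blue for negative. *Cxcr5*, *Ccr6* and *Ltb* carry the highest values under the B cell markers, *Ccr7* ranges from 0.617 to 0.888 and *Ltb* from 0.654 to 0.811 under the T cell markers, and *Ccl20* is negative under the neutrophil markers in the *Gpsm3* and *Dok3* lines.

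Ligands and receptors of one pair did not always move together. Of 20 pair-by-line relations, 13 passed the threshold, and the share among other pairs of genes was not computed. *Ltb* and *Lta*, which form 1 complex, were related in all 4 lines (r from 0.680 to 0.848, rho from 0.647 to 0.851). *Cxcl13* and *Cxcr5* had r of 0.437 in *Nckap1l*, 0.493 in *Dock2*, 0.795 in *Gpsm3* and 0.622 in *Dok3*. In *Nckap1l* rho was 0.219, r was 0.270 without the 2 farthest samples, and within runs it ran from -0.180 to 0.846. *Ccl19* and *Ccr7* had r of 0.580, 0.385, 0.455 and 0.562, with rho of 0.583, 0.367, 0.508 and 0.549. *Ccl20* and *Ccr6* did not reach the threshold in any of the 4 lines, with r from -0.002 to 0.321 (adjusted permutation p from 0.0553 to 0.990). *Ltb* and its receptor *Ltbr* reached it in *Dok3* alone (r = 0.331, rho = 0.247, adjusted permutation p = 0.0352).

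Over all 160 samples, after the mean of each group was removed, the genes most like each member were found among 19848 others. They were the highest of many, so no p is given. *Ccr6* was most like *Bank1* (r = 0.939), a B cell adaptor, then *Gpr174*, a lymphocyte receptor, and the unnamed gene ENSMUSG00000099065. *Cxcr5* was most like *Cd37* (r = 0.912), a tetraspanin of B cells, then *Bank1* and *H2-DMb2*. *Ltb* was most like *Ikzf3* (r = 0.934), a transcription factor of lymphocytes, then *Tbc1d10c* and the B cell receptor regulator *Cd22*, and *Lta* like *Ikzf3* (r = 0.784), *Rasal3* and *Hvcn1*. *Ccr7* was nearest to *Il21r* (r = 0.865), *P2ry10* and *Stat4*, all expressed by lymphocytes. *Cxcl13* was nearest to *Rac2* (r = 0.830), a GTPase of blood cells, then *Tmem176a* and the adhesion molecule *Vcam1* (r = 0.824). *Ccl19* was nearest to *Snx8* (r = 0.705), *Tmem123* and *Plcg2*, *Ltbr* to *Pfn1* (r = 0.818), *Gnb2* and *Ralb*, and *Ccl20* to *Ceacam2*, with r of only 0.549, followed by *Abhd17c* and *C330018D20Rik*. Of these 27 genes, 14 were also among the first 3 by Spearman's rho.

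Knockout was compared with wild type in each line with edgeR's quasi-likelihood test, with Benjamini-Hochberg adjustment over all genes of a line. No member passed the adjusted threshold of 0.05 in any line. The background was as low, with 0 of 17947 genes called in *Nckap1l* (0%), 6 of 17648 in *Dock2* (0.034%), 1 of 17560 in *Gpsm3* (0.00569%) and 0 of 17612 in *Dok3* (0%). At an unadjusted p under 0.05 the same fits gave 807, 900, 854 and 386 genes, and 8 of the 34 member-by-line tests were among them. DESeq2 called 21, 69, 4 and 3 genes and limma-voom 0, 0, 1 and 0. *Lta* was too low to be tested in the *Nckap1l* and *Gpsm3* lines.

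In the *Nckap1l* line the chemokine receptors had the most negative log2 fold changes, -1.998 for *Ccr6* (SE 0.61, p = 0.00284), -1.44 for *Ccr7* (SE 0.65, p = 0.0336) and -1.33 for *Cxcr5* (SE 0.42, p = 0.00344). Each is an unadjusted p, and the adjusted p was 0.830 for *Ccr6* and *Cxcr5* in edgeR's quasi-likelihood test. *Ltb* stood at -0.83 (SE 0.48), *Cxcl13* at -0.30, and *Ltbr*, *Ccl19* and *Ccl20* at 0.04, 0.45 and 0.60. For *Cxcl13* the fitted fold change and the mean log2 CPM disagreed in sign, the mean being 3.89 in knockouts and 3.17 in wild types, where the wild types ranged from 1.93 to 161 CPM. All 11 B cell markers were negative in the same comparison with an unadjusted p under 0.05, with a median log2 fold change of -2.32 against 0.01 over all genes. The T cell markers had a median of 0.04 and no gene with such a p. The mean B cell score was 2.18 lower in the knockouts on the log2 scale (permutation p = 0.00401, unadjusted).

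The *Nckap1l* samples fall into 3 runs of sample numbers, which the labels do not call batches. For *Cxcr5* the knockout mean of log2 CPM minus the wild-type mean was -0.80, -0.70 and -2.23 in the 3 runs (exact permutation p = 0.0493, 0.246 and 0.0179, with 6 and 8, 5 and 4, and 5 and 3 samples). For *Ccr6* it was -1.20, -1.23 and -2.78 (exact permutation p = 0.118, 0.214 and 0.0179). The value of 0.0179 is the smallest that 5 against 3 samples can give. In the third run *Ltb* (-2.001), *Lta* (-1.57) and the B cell score (-4.555) reached the same exact p, so that all 5 knockouts lay below all 3 wild types in each. In the first run *Ltb* differed by 0.06. The direction of *Cxcr5* and *Ccr6* was thus the same in every run, and the difference was widest in the third run. In females alone (4 and 8 samples) and males alone (12 and 7), the *Cxcr5* differences were -1.42 and -0.999.

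In the *Dock2* line *Cxcr5* had a log2 fold change of -0.76 (SE 0.18, p = 0.000156, adjusted p = 0.155 in edgeR's quasi-likelihood test) and *Ccr6* of -0.75 (SE 0.24, p = 0.00367). *Ltb* stood at -0.42 (SE 0.21), *Lta* at -0.55 (SE 0.27) and *Ccr7* at -0.40. *Ccl20*, the epithelial chemokine, stood at 0.41 and *Ltbr* at 0.05. By DESeq2 the adjusted p of *Cxcr5* was 0.0130, and by limma-voom it was 0.355. In males only it was 0.579 in edgeR's quasi-likelihood test. All 11 B cell markers were again negative with an unadjusted p under 0.05 (median -0.89), while 12 of 14 T cell markers were negative (median -0.17) and 3 of the 14 had an unadjusted p under 0.05. The 3 plasma cell markers tested were negative with an unadjusted p under 0.05 (median -1.43), and 6 of 6 striated muscle genes (median -1.73, 2 with such a p) and 6 of 6 skin genes (median -0.92) were negative. Their part in the result was not tested beyond the fits with marker scores as covariates. Females and males gave different sizes. For *Ccr6* the mean difference in log2 CPM was -1.01 in females (8 and 12 samples, exact permutation p = 0.00371) and -0.24 in males (10 and 12 samples, permutation p = 0.538), beside -1.27 and -0.32 for the B cell score. For *Cxcr5* it was -0.85 (exact permutation p = 0.00568) and -0.57 (permutation p = 0.0268). The difference in *Ltb* was -0.80 among females (exact permutation p = 0.00888), beside 0.01 among males. The difference between the sexes was not tested.

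The *Gpsm3* knockouts pointed the other way, short of the threshold. *Ccr7* had a log2 fold change of 0.76 (SE 0.33, p = 0.0254), *Ccr6* of 0.63, *Ccl19* of 0.56, *Cxcr5* of 0.54 (SE 0.26, p = 0.0439), *Ltb* of 0.50 and *Cxcl13* of 0.42, each with an adjusted p of 0.936 or higher in edgeR's quasi-likelihood test. For *Ccr7* and *Cxcr5* the unadjusted p was 0.0178 and 0.0359 by DESeq2, but 0.241 and 0.182 by limma-voom. With the neutrophil score as covariate, *Ccr7*, *Cxcr5* and *Ccr6* stood at 0.51, 0.23 and 0.24. Without a covariate, the B cell markers had a median of 0.54 and the T cell markers of 0.25, all 11 and all 14 positive, and the neutrophil markers 0.89. The 6 striated muscle genes tested were positive as well, with a median of 1.26. Among the members, the *Dok3* knockouts showed no such tilt. There *Ccl20* stood at 0.45 and *Ccl19* at -0.36, the other 7 lay closer to 0, and no member had an unadjusted p under 0.05. All 11 B cell markers were negative there (median -0.16, none with an unadjusted p under 0.05), as were all 14 T cell markers (median -0.35, 3 with such a p). So were 8 of 8 striated muscle genes (median -1.13) and 6 of 6 skin genes (median -0.565). The part of muscle and skin in the values of both lines was not tested beyond the fit with their scores as covariates.

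**Figure D4:**
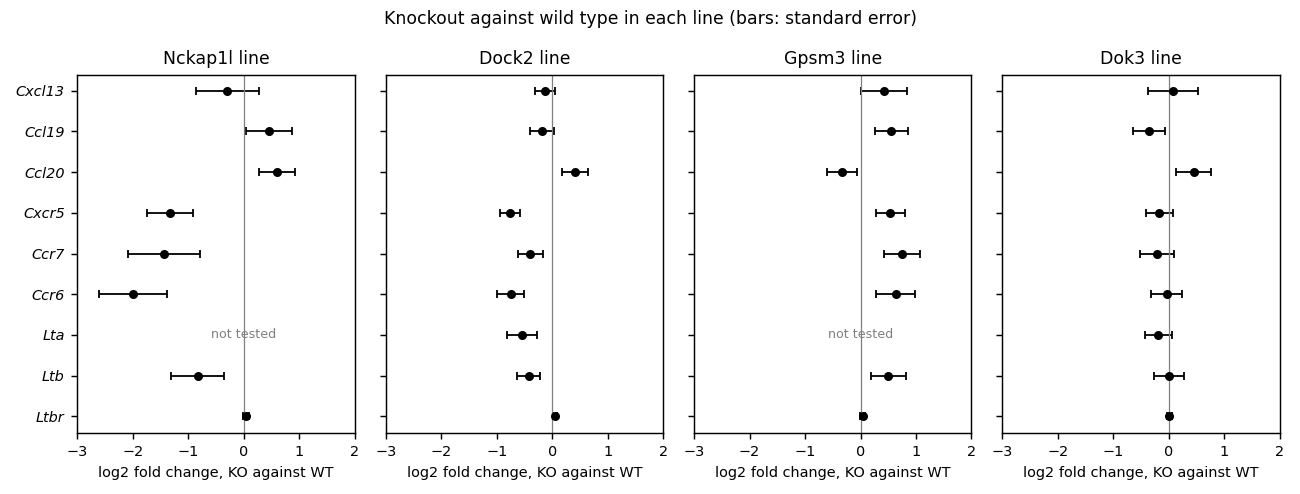
Log2 fold change of each gene, knockout against wild type, with its standard error, in the 4 lines. *Cxcr5*, *Ccr7* and *Ccr6* lie left of 0 in the *Nckap1l* and *Dock2* lines (-1.998 to -0.40) and right of it in the *Gpsm3* line (0.54 to 0.76), and *Ltbr* lies between 0.01 and 0.05.

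Whether the knockout difference itself differed between lines was tested with 1 fit of the 8 groups. Here *Cxcr5* (adjusted p = 0.0246) and *Ccr6* (adjusted p = 0.0273) passed the threshold in edgeR's quasi-likelihood F test of the interaction, which called 137 of 19849 genes (0.69%). The log2 fold changes behind it were -1.33, -0.76, 0.54 and -0.17 for *Cxcr5* and -1.998, -0.75, 0.63 and -0.04 for *Ccr6* in *Nckap1l*, *Dock2*, *Gpsm3* and *Dok3*. *Ccr7* (adjusted p = 0.147) and *Ltb* (0.804) did not pass, and the other 5 members had adjusted p-values of 1.00 after rounding. Both calls were lost with limma-voom, where only 1 gene was called at all, and in males only (adjusted p = 0.351 and 0.510). They were also lost when the *Nckap1l*, the *Dock2* or the *Gpsm3* line was left out, but not without *Dok3* (adjusted p = 0.0159 and 0.0342). For *Cxcr5* the adjusted p was then 0.322, 0.138 and 1.00, and for *Ccr6* 0.733, 0.107 and 0.726. Leaving out 1 *Nckap1l* library also ended the call of *Cxcr5* for wild-type replicates 8 and 10 (adjusted p up to 0.0855), and that of *Ccr6* for knockout replicates 4, 5 and 15 and wild-type replicates 8, 9 and 10 (up to 0.104). *Ccr7* was called in 1 of the 31 such fits (adjusted p = 0.0233).

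When the B cell score entered the fit as a covariate, the fold changes of *Cxcr5* and *Ccr6* lay nearer to 0. *Cxcr5* moved from -1.33 to -0.04 (SE 0.16) in *Nckap1l* and from -0.76 to -0.30 (SE 0.12) in *Dock2*. *Ccr6* moved from -1.998 to 0.05 (SE 0.22) and from -0.75 to 0.10 (SE 0.12), and *Ltb* from -0.83 to 0.94 (SE 0.23) and from -0.42 to 0.23 (SE 0.11). The third chemokine receptor, *Ccr7*, changed sign, from -1.44 to 0.895 (SE 0.40) in *Nckap1l* and from -0.395 to 0.127 (SE 0.195) in *Dock2*. *Cxcl13* moved from -0.30 to 2.25 (SE 0.73) in *Nckap1l*. Other members moved away from 0 there, *Ccl20* from 0.60 to 1.25 (SE 0.37) and *Ccl19* from 0.45 to 1.38 (SE 0.47). In *Dock2* *Ccl20* moved from 0.41 to 0.75 (SE 0.25), while *Ccl19* moved from -0.19 to -0.01 (SE 0.23). None of these passed the adjusted threshold. The score contains no member, but its genes were measured in the same libraries. It was itself lower in the knockouts of both lines, and the chemokine receptors rose and fell with it across samples. An upward move of the chemokine receptors follows from this and is no separate result. With the neutrophil score as covariate instead, *Cxcr5* was -1.13 and -0.735. With the skin and striated muscle scores, *Cxcr5* was -1.20 in *Nckap1l* and -0.85 in *Dock2*, where its adjusted p became 0.0277 in edgeR's quasi-likelihood test.

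**Figure D5:**
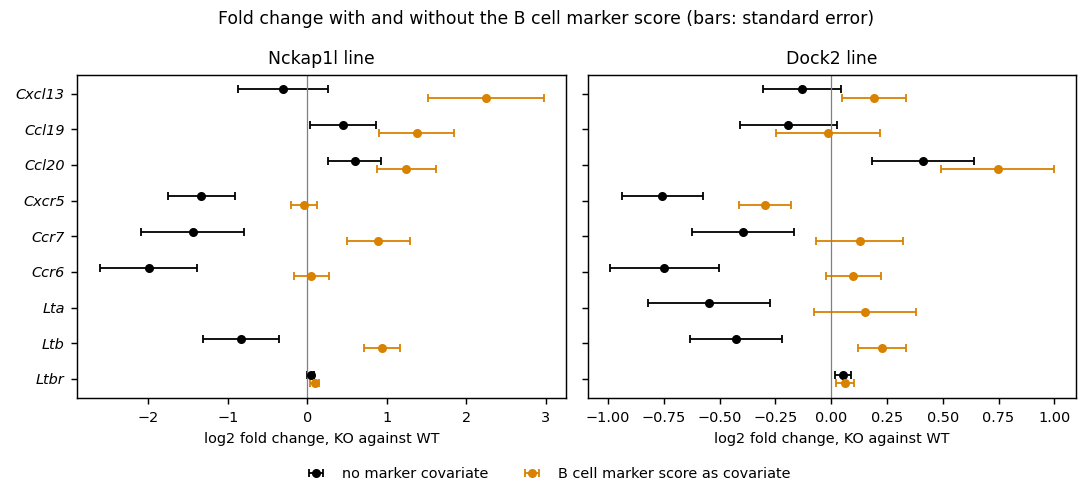
Log2 fold change of each gene, knockout against wild type, without (black) and with (orange) the B cell marker score as covariate, with standard errors. In the *Nckap1l* line *Cxcr5* moves from -1.33 to -0.04 and *Ccr6* from -1.998 to 0.05, while *Ltbr* stays at 0.04 and 0.09.

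Among wild types alone, the lines differed in *Cxcl13* (adjusted p = 0.0177) and *Ccl19* (adjusted p = 0.0205) in edgeR's quasi-likelihood F test. That test called 6969 of 19849 genes (35.1%), so 2 of 9 members is a share below the background. Mean *Cxcl13* was 23.5 ± 41.4 CPM in *Nckap1l* (SD, n = 15), 11.1 ± 4.92 in *Dock2* (n = 24), 16.4 ± 20.2 in *Gpsm3* (n = 20) and 30.5 ± 46.2 in *Dok3* (n = 21). Mean *Ccl19* was 1.07 ± 0.835 CPM, 0.685 ± 0.323, 0.558 ± 0.361 and 1.07 ± 0.756 in the same order. *Ccr7* (adjusted p = 0.0507), *Cxcr5* (0.0586) and *Ccr6* (0.0681) fell just short. *Cxcl13* and *Ccl19* both lost the call with limma-voom (adjusted p = 0.195 and 0.0558) and in males only (0.109 and 0.0877). Without the *Dock2* line the adjusted p was 0.268 and 0.0811, without *Dok3* 0.0932 and 0.176, and without *Gpsm3* *Ccl19* stood at 0.0825.

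Beyond the members, 3 lists of the same biology were examined. None of the genes of lymphotoxin and non-canonical NF-kB signalling (17 or 18 of 19 tested in each line), of lymphocyte homing (21 or 22 of 23) and of lymphoid tissue induction (8 of 8) passed the adjusted threshold in any line. In the first list the smallest p belonged to *Tnfrsf13c*, the B cell survival receptor for BAFF, in both *Nckap1l* (log2 fold change -2.26, SE 0.88, p = 0.0159) and *Dock2* (-1.17, SE 0.29, p = 0.000254, adjusted p = 0.155, edgeR's quasi-likelihood test). In *Gpsm3* it belonged to *Cd40* (0.58, SE 0.21), the B cell receptor for T cell help, and in *Dok3* to *Traf2* (-0.06). In the homing list it belonged to the integrin *Itga4* (-0.56) in *Nckap1l*, the egress receptor *S1pr1* (-0.36) in *Dock2*, the oxysterol enzyme *Ch25h* (0.53) in *Gpsm3* and the mucosal chemokine *Ccl28* (0.38) in *Dok3*. In the induction list it belonged to *Il7r* (-0.42 in *Nckap1l*, 0.50 in *Gpsm3*), *Id2* (-0.14 in *Dock2*) and *Ahr* (-0.12 in *Dok3*).

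In the *Gpsm3* line 15 of 17 lymphotoxin pathway genes and 19 of 21 homing genes had positive fold changes, with medians of 0.18 and 0.24 against 0.00 over all genes, beside a median of 0.89 for the neutrophil markers. In the *Nckap1l* line 14 of 18 and 12 of 21 were negative, with medians of -0.04 and -0.05. In *Dock2* and *Dok3* the medians of the 2 lists lay between -0.03 and 0.03. The stromal list of follicles (*Madcam1*, *Vcam1* and others) had medians of -0.085 in *Nckap1l*, -0.14 in *Dock2*, 0.45 in *Gpsm3* and -0.14 in *Dok3*. In *Dock2* limma-voom called 0 genes. By edgeR's quasi-likelihood test, which called 6 of 17648 genes there (0.034%), 1 of the 7 stromal list genes was lower past the threshold. That gene, named after its values were seen, was *Cr2*, the complement receptor of follicular dendritic cells and B cells (log2 fold change -1.53, SE 0.28, adjusted p = 0.0127, edgeR's quasi-likelihood test). The list is thus not free of B cell genes. Among 6 genes of germinal centre B cells, 1 was at 0 in every library of each group and up to 3 had a group mean under 1 CPM. The part of these cells in the results was not tested.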

How the data were processed

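Ribosome-depleted total RNA of 160 distal colon samples was sequenced as single reads (Illumina). The authors aligned with STAR (mm10) and summarised by Ensembl gene with featureCounts (Subread). The deposited files hold raw counts, 1 file a sample. Symbols and positions came from GENCODE vM21 (GRCm38), which named 37607 of 39179 genes (99.67% of counts).

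Counts were filtered with filterByExpr, scaled by TMM and tested in edgeR 4.0.16 (quasi-likelihood, R 4.3.3), with Benjamini-Hochberg adjustment at 0.05. A term for the labelled sex entered wherever both sexes were labelled (*Nckap1l*, *Dock2*, fit of 8 groups). Levels are TMM-scaled CPM, on the log2 scale with a prior count of 2. Single values and correlations (Pearson, Spearman) were compared by two-sided permutation (100000 resamples, exact enumeration below 10 samples a group, scipy 1.17.1). Alternatives were DESeq2 1.42.0, limma-voom 3.58.1, RLE factors, no filter, no sex term, males only, the run of sample numbers, 2 surrogate variables (sva 3.50.0), marker scores as covariates, and leaving out samples. The F tests without each line, each *Nckap1l* library or the sex mismatches, the neutrophil correlations and the ligand and receptor pairs were added after seeing the data. Scripts were tested on simulated data.

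The members and gene lists were chosen with earlier results of these data known. Named genes were every member, the 3 genes most like it, and the smallest p of each pathway list in each line. Samples are single mice as far as the labels show. Replicate numbers follow accession order and pair nothing. Intervals of depth cover counting error only.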

Additional observations from a re-analysis of the deposited data

Results flagged for a closer look

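*Cxcr5* and *Ccr6* stood out because their knockout difference was not the same in the 4 lines. The interaction test of edgeR (quasi-likelihood F test, all 160 samples) gave an adjusted p of 0.0246 for *Cxcr5* and of 0.0273 for *Ccr6*, where 0.69% of all genes were called. *Cxcr5* was below the wild-type median in 12 of 16 *Nckap1l* knockouts, 17 of 18 *Dock2* knockouts, 8 of 20 *Gpsm3* knockouts and 14 of 26 *Dok3* knockouts. For *Ccr6* the numbers were 14, 18, 8 and 16. The B cell score moved with them, with 13, 17, 8 and 16 knockouts below the wild-type median, and its part in the interaction was not tested. With each *Nckap1l* library left out in turn, *Cxcr5* kept the call in 29 of 31 fits and *Ccr6* in 25 of 31. Both calls were lost with limma-voom, in males only, and without the *Nckap1l*, the *Dock2* or the *Gpsm3* line.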

How the results depend on the processing

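Of 1440 repeated values, 1264 kept their direction and their side of the threshold (counts: within 1.5 times), 65 lost a call, 17 gained one, 46 moved and 48 changed sign. Of the 48, 23 were fold changes (of 339) and 25 were correlations (of 486). All 25 belonged to relations that had not passed the threshold, and none of the 350 repeats of the 52 relations that had passed it changed sign.
The number of genes called in *Nckap1l* became 21 with DESeq2, 27 without the filter and 82 with 2 surrogate variables. In *Dock2* it became 69 with DESeq2, 0 with limma-voom, 31 without the filter, 1 in males only, 93 with 2 surrogate variables, 86 with the B cell score, 10 with the neutrophil score and 44 with the skin and muscle scores. DESeq2 and no filter gave 4 and 32 in *Gpsm3*, and 3 and 15 in *Dok3*. In *Dock2*, members called became 1 with DESeq2 (*Cxcr5*), 2 with surrogate variables (*Cxcr5*, *Ccr6*) and 1 with the skin and muscle scores (*Cxcr5*).
The interaction test called 1 gene with limma-voom, 69 in males only, and 20, 16 and 14 without the *Nckap1l*, *Dock2* or *Gpsm3* line, each with 0 members. Leaving out 1 *Nckap1l* library at a time gave 95 to 187 genes and 0 to 3 members. The wild-type comparison called 3451 genes in males only (0 members), 4253 without *Nckap1l* (4 members), 3572 without *Dock2* (0), 3773 without *Gpsm3* (1) and 3299 without *Dok3* (0), and limma-voom called 0 members. Within the third run of *Nckap1l* sample numbers (5 knockouts and 3 wild types), 0 of 9 relations with the T cell markers passed, and all 9 were positive. The cause was not tested.
*Cxcl13* in *Nckap1l* changed sign to 0.68 (limma-voom), 0.84 (surrogate variables), 2.25 (B cell score), 0.44 (neutrophil score) and 0.13 (skin and muscle scores), in *Dock2* to 0.13 (males only) and 0.19 (B cell score), and in *Dok3* to -0.225 (DESeq2), -0.088 (limma-voom), -0.15 (surrogate variables) and -0.26 (skin and muscle scores). With the B cell score, *Ccr7*, *Ccr6* and *Ltb* became 0.895, 0.05 and 0.94 in *Nckap1l* and 0.13, 0.10 and 0.23 in *Dock2*, *Lta* became 0.15 in *Dock2* and *Ccr6* 0.015 in *Dok3*. *Ccl19* became -0.038 in *Nckap1l* males, *Ltb* in *Dok3* -0.002 without the sex mismatches and -0.007 with the skin and muscle scores, and *Ltbr* in *Dok3* -0.001 with surrogate variables.
Of the correlations, *Ccl20* with the B cell markers became -0.17 in *Dock2* knockouts, and -0.093 (without the 2 farthest samples) and -0.133 (second run of sample numbers) in *Gpsm3*. With the T cell markers it became -0.138 in *Nckap1l* (second run), -0.071 (Spearman), -0.092 (without 2 samples) and -0.067 (knockouts) in *Dock2*, 0.059 (Spearman), 0.043 (without 2 samples), 0.004 (knockouts), 0.027 (wild types) and 0.288 (first run) in *Gpsm3*, and -0.014 (without 2 samples), -0.009 (knockouts) and -0.174 (first run) in *Dok3*. *Ltbr* with the B cell markers became -0.01, -0.191 and -0.309 in the 3 runs of *Nckap1l*, 0.008 in *Dock2* wild types, and -0.015 (wild types) and -0.001 (first run) in *Gpsm3*, where with the T cell markers it became -0.178 and -0.021. *Cxcl13* with the B cell markers became -0.261 in the third run of *Nckap1l*, and *Ccl19* -0.014 in the first run of *Dok3*.
No paired analysis was possible because the replicate numbers only follow accession order. Depth limits *Lta* and *Ccl19*, whose median counts were 8.0 and 10.0 a library, and spread from DSS within a group cannot be told apart from other spread.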
